A study of Mus musculus with 16 samples.

Results

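AP-1 is a family of dimeric transcription factors whose subunits are encoded by the Fos, Jun, Batf and small Maf genes and their relatives. The mRNAs of 9 of them (Fos, Fosb, Fosl1, Fosl2, Jun, Junb, Batf, Maff and Mafk) were measured in RAW 264.7 cells, a mouse tumour line with macrophage properties, after stimulation with LPS with or without cordycepin. The 9 genes were listed with earlier results of these data known. Every non-control probe of the array whose gene name equalled 1 of the 9 was then taken. That gave 10 probes of 55681, with 2 probes for Fosl2 and 1 for each other gene. Of the 9 genes, 8 were bright enough to be tested among 15877 genes, and Batf was not.

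Cordycepin is an adenosine analogue (3'-deoxyadenosine) known as an inhibitor of polyadenylation, and LPS is a bacterial cell wall component that activates macrophages through a Toll-like receptor. Cells in medium with little serum received cordycepin at 20 µM or its solvent DMSO. After 60 min, LPS was added to some wells at 1 µg/ml for a further 60 min, so that every well spent 120 min in DMSO or cordycepin. The 4 conditions are DMSO, cordycepin, LPS+DMSO and LPS+cordycepin, each with 4 arrays, and per the labels each replicate number was its own culture day with all 4 conditions. The solvent was common to all conditions, and the cells were a single tumour-derived line, not primary macrophages.

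Fos and Jun proteins pair through a leucine zipper and bind the AP-1 site. Their genes are classical immediate early genes: MAP kinases act on transcription factors already present in the cell, so that the mRNAs rise within minutes and, with short half-lives, fall again soon after. Fosb, Fosl1 (Fra-1) and Fosl2 (Fra-2) are the other Fos proteins, of which Fosl1 and Fosl2 lack the strong activation domain of Fos. Junb is a Jun protein with a weaker activation domain. Batf pairs with Jun proteins and interferon regulatory factors, and the small Maf proteins Maff and Mafk have no activation domain of their own and bind DNA with partners of the CNC family such as Nrf2. In macrophages AP-1 acts beside NF-kB on cytokine genes.

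The sequence just before the start of each gene shows which of the textbook elements of immediate early promoters are present in the members. RefSeq windows (assembly GRCm38.p6) were found for 8 of the 9 genes, with 3 starts for Maff and 10 windows in all. The 250 bases before the start were searched on both strands for the AP-1 site TGANTCA, the cAMP response element TGACGTCA and its first 5 bases TGACG, the CArG box of the serum response element and an NF-kB site, and on the strand of the gene for TATAAA. The element TGACATCA was added after the Jun window had been read. Windows are shown for Fos, Fosb, Fosl2, Jun and the second start of Maff, 5′ to 3′ on the strand of the gene, with capitals for every match.
Fos chr12:85473640-85473889 (+): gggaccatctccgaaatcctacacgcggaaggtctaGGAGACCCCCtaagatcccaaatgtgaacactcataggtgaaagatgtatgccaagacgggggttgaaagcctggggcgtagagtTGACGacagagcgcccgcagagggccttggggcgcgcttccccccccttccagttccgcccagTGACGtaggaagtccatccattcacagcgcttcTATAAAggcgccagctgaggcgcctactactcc
Fosb chr7:19310046-19310295 (-): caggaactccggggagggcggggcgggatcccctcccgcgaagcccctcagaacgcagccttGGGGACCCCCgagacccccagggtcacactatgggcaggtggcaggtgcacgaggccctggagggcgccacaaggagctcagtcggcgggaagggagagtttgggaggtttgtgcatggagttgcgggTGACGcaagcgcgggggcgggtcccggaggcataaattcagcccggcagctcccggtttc
Fosl2 chr5:32136222-32136471 (+): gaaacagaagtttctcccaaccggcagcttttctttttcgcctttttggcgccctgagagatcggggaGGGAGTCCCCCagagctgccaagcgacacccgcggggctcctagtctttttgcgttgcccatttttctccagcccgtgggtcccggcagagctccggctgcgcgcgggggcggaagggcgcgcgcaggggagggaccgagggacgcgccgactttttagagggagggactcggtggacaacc
Jun chr4:95052223-95052472 (-): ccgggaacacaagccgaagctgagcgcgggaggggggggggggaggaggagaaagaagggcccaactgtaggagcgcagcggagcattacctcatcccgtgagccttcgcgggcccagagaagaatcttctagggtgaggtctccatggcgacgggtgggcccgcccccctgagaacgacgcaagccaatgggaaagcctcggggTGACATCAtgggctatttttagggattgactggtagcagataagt
Maff chr15:79347270-79347519 (+): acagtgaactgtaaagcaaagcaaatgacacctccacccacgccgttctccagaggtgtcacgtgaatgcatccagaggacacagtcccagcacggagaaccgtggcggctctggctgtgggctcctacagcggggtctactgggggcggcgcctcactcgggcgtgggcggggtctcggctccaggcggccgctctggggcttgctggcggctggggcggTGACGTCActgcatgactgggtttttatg
In the Fos window the capitals are, in order, an NF-kB match, TGACG at -129 and -66 from the start, and TATAAA at -33. Fosb held an NF-kB match at -188 and TGACG at -60. Fosl2 held overlapping NF-kB matches from -182 to -172 and none of the other elements. Jun held TGACATCA at -45, an element also present at -45 of the third Maff start, and the second Maff start held the whole TGACGTCA at -29. TGACG was present in 6 of the 8 genes, Batf included and Fosl1 not among them, counting its place within TGACGTCA, and an NF-kB match in 4. Among 32841 RefSeq windows of the same length, 17.8% held TGACG, 1.55% TGACGTCA, 2.93% TGACATCA, 7.25% an NF-kB match and 7.59% TATAAA. No member window held the CArG box or TGANTCA, which were in 1.47% and 6.75% of all windows. A match is a run of letters and not evidence of binding, and an element farther away lay outside the window.

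Levels are given as log2 of the processed signal after each array was scaled to its 75th percentile, so that 1 unit is 2-fold, and levels of different probes were not set against each other. A gene was called changed at an adjusted p under 0.05 (limma, Benjamini-Hochberg over all genes tested) and at least 2-fold, where the fold minimum is that of the study. Between 21999 and 30362 spots per array were well above background (37.1% to 51.2%). Replicates 1 and 2 of every condition lay on one slide, with 21999 to 26055 such spots, and replicates 3 and 4 on the other, with 27151 to 30362. Of 10 macrophage markers, 9 were well above background on all 16 arrays, the exception being Mrc1. Lower abundance of an mRNA per cell cannot be told apart from fewer cells expressing it.

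**Figure D1:**
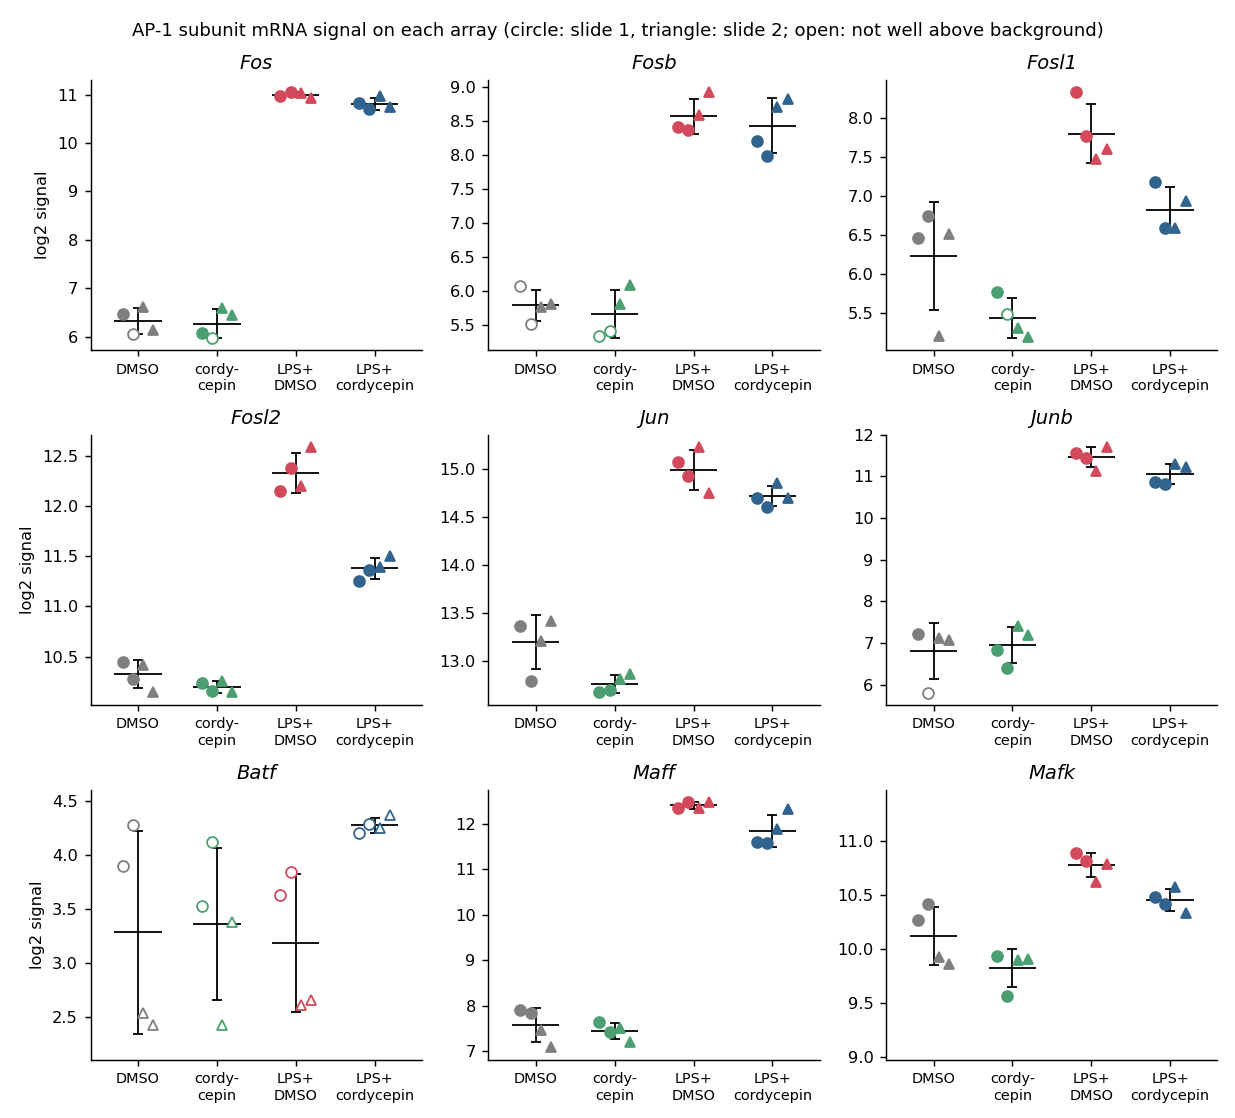
Log2 signal of each AP-1 subunit on every array in the 4 conditions, with circles for slide 1, triangles for slide 2 and open symbols for arrays on which the probe was not well above background. Bars give the mean and SD of 4 arrays, and Fosl2 is its bright probe. All 8 subunits other than Batf were higher on every LPS array than on every array without LPS of the same solvent or drug, and Batf was open on all 16 arrays.

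LPS raised the mRNAs of Fos, Fosb, Fosl1, Fosl2, Jun, Junb and Maff at least 2-fold in DMSO, which is 7 of the 8 tested members, while 2.09% of all genes tested were called higher. No member was called lower, against 2.49% of all genes. At the adjusted p alone all 8 were higher, against 5.14%. The median change of the 8 was 2.39 on the log2 scale, against -0.04 over all genes. Every one of the 8, Mafk included, was higher on all 4 days and did not overlap between the conditions, as was the case for 6.63% of all genes. Fos and Fosb passed the filter on dim probes only through their LPS arrays and so had to be higher there. Of the other 6, which passed it without LPS too, 5 were called, with a median of 1.90.

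Among the Fos genes, Fos itself was at 6.48, 6.06, 6.62 and 6.13 (replicates 1 to 4) in DMSO and at 10.97, 11.04, 11.04 and 10.93 in LPS+DMSO. Fos was close to background at rest, being well above it on 3 of 4 DMSO arrays, and its LPS arrays lay within a narrow range. The rise was 4.67 ± 0.14 (SE), or 25.5-fold, with adjusted p = 9.14e-12. Fosb rose from 6.07, 5.51, 5.76 and 5.81 to 8.41, 8.36, 8.59 and 8.93, a change of 2.78 (6.89-fold, SE 0.21, adjusted p = 1.67e-07). Fosb was well above background on 2 of the 4 DMSO arrays, both on slide 2, and on all LPS arrays.

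The Fra genes had smaller rises. Fosl1 was at 6.46, 6.74, 5.21 and 6.51 in DMSO and at 8.33, 7.77, 7.48 and 7.61 in LPS+DMSO. Replicate 3 was the low DMSO array, and the groups did not overlap (1.57, 2.96-fold, SE 0.28, adjusted p = 0.00115). This call was lost with the normexp background correction, which gave 0.83 with adjusted p = 0.0745. Fosl2 was at 10.45, 10.28, 10.42 and 10.15 in DMSO and at 12.15, 12.37, 12.20 and 12.59 in LPS+DMSO. Its signal exceeded background clearly on each of the 16 arrays and rose by 2.00 (4.00-fold, SE 0.10, adjusted p = 2.24e-09).

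Of the Jun genes, Jun was at 13.36, 12.80, 13.21 and 13.43 in DMSO and at 15.07, 14.93, 15.23 and 14.75 in LPS+DMSO. It was thus well above background before LPS and rose by 1.79 (3.47-fold, SE 0.13, adjusted p = 1.31e-07). Junb was at 7.22, 5.81, 7.12 and 7.08 in DMSO, where replicate 2 was low and not well above background, and at 11.56, 11.45, 11.13 and 11.71 in LPS+DMSO. Its rise was 4.66 (25.2-fold, SE 0.28, adjusted p = 1.41e-08), and without that DMSO array it was 4.32 (adjusted p = 3.31e-09).

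The small Maf genes differed in the size of the rise. Maff was at 7.90, 7.84, 7.46 and 7.08 in DMSO and at 12.35, 12.48, 12.34 and 12.48 in LPS+DMSO. This was the largest change of the 8, 4.84 (28.7-fold, SE 0.18, adjusted p = 8.13e-11), with an interval of 4.45 to 5.24 that overlaps those of Fos and Junb. Mafk was at 10.27, 10.42, 9.93 and 9.86 in DMSO and at 10.89, 10.81, 10.62 and 10.79 in LPS+DMSO. It rose by 0.66 (1.58-fold, SE 0.13, adjusted p = 0.00194) and so passed the adjusted p but not the 2-fold minimum.

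Batf was not well above background on any of the 16 arrays, although each array carried 10 spots of its probe. Its signal lay between 2.42 and 4.37, below the dimmest probe well above background on the same array, which was at 4.41 to 6.32. No fold is given for it, since both groups of every comparison lay in that range. It entered a test only where the filter on dim probes was lifted or was waived for member probes. The second Fosl2 probe was also dim, being well above background on 2 DMSO, 0 cordycepin, 2 LPS+DMSO and 1 LPS+cordycepin arrays, and did not represent the gene. Fitted on its own with the filter waived for member probes, this Fosl2 probe changed by 0.85 with LPS in DMSO (SE 0.51, adjusted p = 0.340). It changed by -0.41 with LPS in cordycepin (adjusted p = 0.789) and by -1.20 with cordycepin in LPS-stimulated cells (adjusted p = 0.127). It thus did not show the LPS rise of the bright probe in cordycepin, at signals near background. The bright probe lies at chr5:32460076-32460135 and the dim one at chr5:32455088-32455147 on the + strand of mm9, the build of the array files.

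In cells held in cordycepin, LPS again raised Fos, Fosb, Fosl1, Fosl2, Jun, Junb and Maff, 7 of the 8 tested members, against 1.69% of all genes called higher. The median change was 2.36, against -0.05 over all genes. Fos and Fosb, which passed the filter on dim probes only through LPS arrays, had to be higher here too. Of the other 6, 5 were called, with a median of 1.67. The 8 genes were higher on all 4 days and did not overlap between cordycepin and LPS+cordycepin, where 5.99% of all genes lay wholly higher. Fos rose from 6.07, 5.98, 6.59 and 6.45 to 10.83, 10.69, 10.97 and 10.74, which is 4.53 (23.2-fold, SE 0.14, adjusted p = 2.15e-11). Fosb rose by 2.77 (6.80-fold) and Jun by 1.95 (3.86-fold), with SE 0.21 and 0.13 and adjusted p = 2.87e-07 and 9.22e-08. Both values are close to those measured in DMSO.

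Junb rose by 4.09 (17.0-fold, SE 0.28, adjusted p = 1.02e-07) and Maff by 4.40 (21.2-fold, SE 0.18, adjusted p = 3.04e-10) in cordycepin. Fosl1 rose from 5.77, 5.50, 5.31 and 5.19 to 7.18, 6.60, 6.60 and 6.94 (1.38, 2.61-fold, SE 0.28, adjusted p = 0.00506). The Fosl1 call did not hold with the normexp correction, with scaling to spiked-in controls, with the values of the authors, within either slide or without replicate 4 (1.26, adjusted p = 0.0845). Fosl2 rose by 1.18 (2.26-fold, SE 0.10, adjusted p = 1.49e-06), a call lost with scaling to spiked-in controls (0.87, adjusted p = 0.382). Mafk rose by 0.63 (1.54-fold, SE 0.13, adjusted p = 0.00471), again short of 2-fold. All 8 were thus higher at the adjusted p alone, where 3.54% of all genes were, although Mafk did not pass without replicate 3 (adjusted p = 0.0528).

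**Figure D2:**
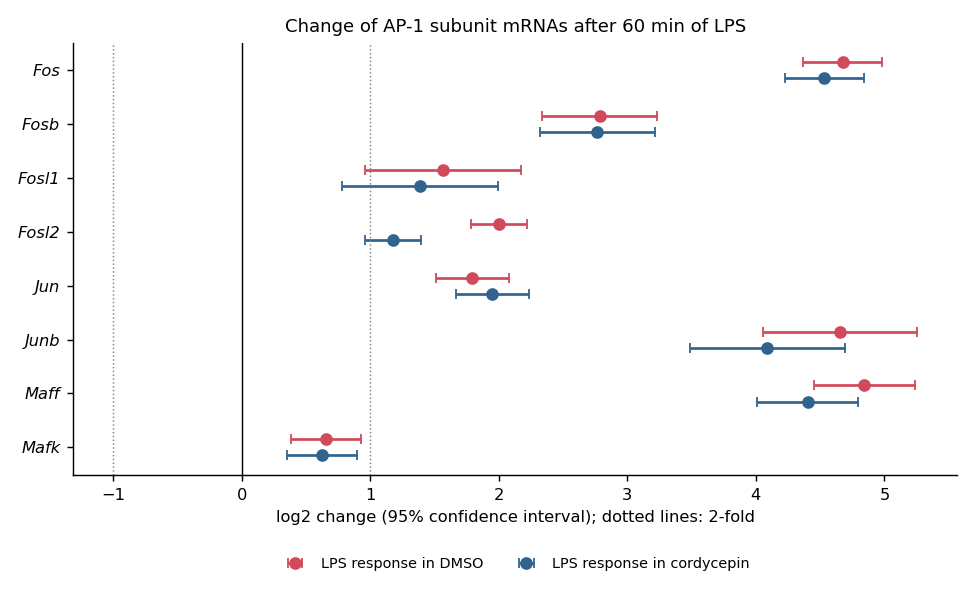
Log2 change of each tested AP-1 subunit after 60 min of LPS, in DMSO (red) and in cordycepin (blue), with 95% confidence intervals of the fit to 16 arrays and dotted lines at 2-fold. The intervals of the 2 responses overlap for every gene except Fosl2, at 2.00 in DMSO and 1.18 in cordycepin.

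Whether the response itself differed with cordycepin was tested as an interaction, in which the rise with LPS in DMSO was subtracted from that in cordycepin. It was called at an adjusted p under 0.05 whatever its size. Of the 8 members 1 was called, Fosl2, with a smaller response, while 0.554% of all genes were called in either direction and 0.271% with a smaller response. By day, Fosl2 rose by 1.70, 2.09, 1.77 and 2.43 in DMSO and by 1.02, 1.20, 1.13 and 1.36 in cordycepin, in replicates 1 to 4. The response was smaller in cordycepin on each of the 4 days, and the 2 sets of responses did not overlap. The difference was -0.82 (SE 0.15, adjusted p = 0.0147).

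With the culture day as a block the adjusted p for Fosl2 was 0.0241. It did not pass when any 1 of the 4 days was left out, with differences of -0.88 to -0.74 and adjusted p of 0.0960 to 0.202, nor within either slide (-0.78 and -0.86). For the other 7 the difference had intervals that include 0. The widest belonged to Junb, -0.57 (-1.41 to 0.28, adjusted p = 0.884), and Fosl1, -0.18 (-1.04 to 0.67, adjusted p = 0.976). For Maff it was -0.44 (SE 0.26, adjusted p = 0.812). Both Junb and Maff had a smaller response in cordycepin on all 4 days. For Fos it was -0.14 (-0.58 to 0.30), for Fosb -0.02 (-0.65 to 0.61), for Jun 0.16 (-0.24 to 0.56) and for Mafk -0.03 (-0.42 to 0.35).

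**Figure D3:**
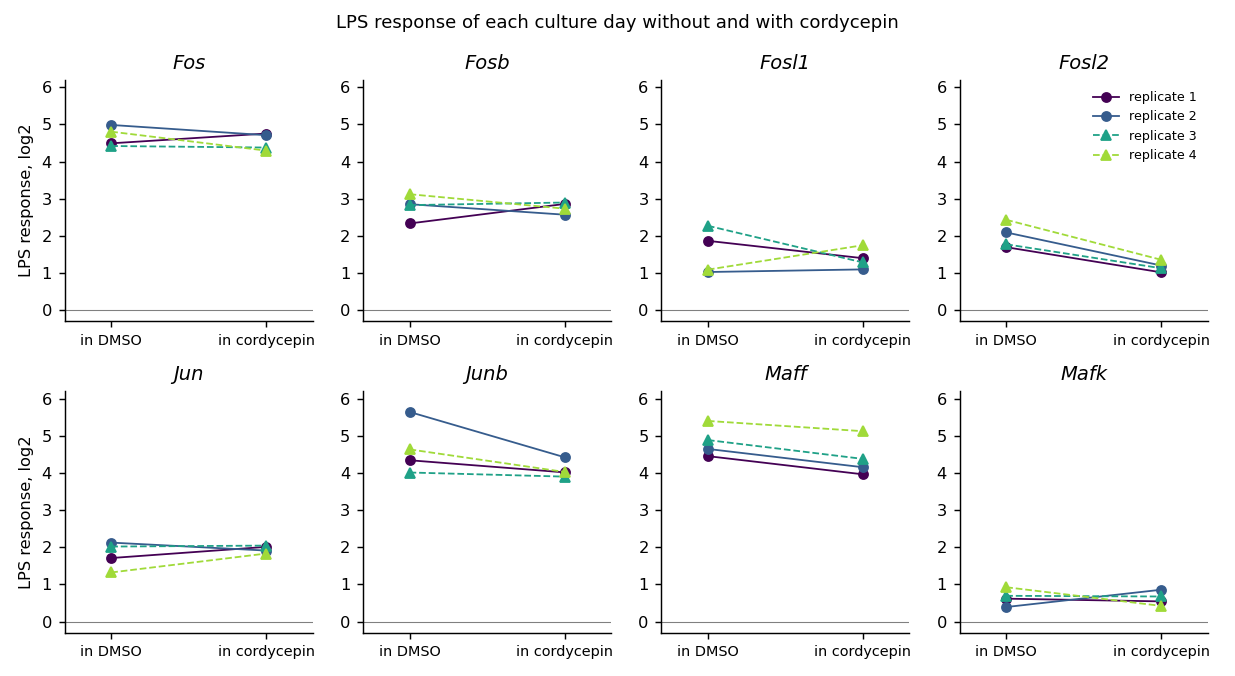
LPS response (log2) of each tested AP-1 subunit on each of the 4 culture days, in DMSO and in cordycepin, with a line per day (solid with circles for slide 1, dashed with triangles for slide 2). For Fosl2 all 4 lines fall, from 1.70 to 2.43 in DMSO to 1.02 to 1.36 in cordycepin, while for Fosb the lines cross.

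In LPS-stimulated cells, no member was called lower or higher with cordycepin at 2-fold, while 7.46% of all genes tested were. At the adjusted p alone, Fosl1, Fosl2 and Maff were lower, 3 of the 8, where 8.47% of all genes were lower. All 8 changes were below 0, with a median of -0.37 against 0.03 over all genes. The groups did not overlap for Fosl1, Fosl2, Maff and Mafk, 4 of the 8, where 10.1% of all genes lay wholly lower. These comparisons share the LPS+DMSO arrays with the LPS response, so the values are not independent of it.

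Fosl2 was at 12.15, 12.37, 12.20 and 12.59 in LPS+DMSO and at 11.26, 11.36, 11.39 and 11.50 in LPS+cordycepin. Each LPS+cordycepin array lay below every LPS+DMSO array and above every array without LPS. The change was -0.95 (SE 0.10, adjusted p = 5.32e-06), 1.93-fold lower, just short of the 2-fold minimum. It passed that minimum with the percentile over all probes (-1.07) and without LPS+DMSO replicate 1 (-1.01). Within slides it was -0.95 and -0.94.

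Fosl1 was at 8.33, 7.77, 7.48 and 7.61 in LPS+DMSO and at 7.18, 6.60, 6.60 and 6.94 in LPS+cordycepin. Its change, -0.97 (1.96-fold lower, SE 0.28, adjusted p = 0.0242), also lay just short of 2-fold. It passed the minimum with quantile normalization (-1.18), with the percentile over all probes (-1.09), within slide 1 (-1.17), narrowly without replicate 3 and without any of 4 single arrays, these being LPS+DMSO replicates 3 and 4 and LPS+cordycepin replicates 1 and 4 (-1.09 to -1.01). Maff was at 12.35, 12.48, 12.34 and 12.48 in LPS+DMSO and at 11.60, 11.57, 11.88 and 12.33 in LPS+cordycepin. Replicate 4 was the highest of the cordycepin arrays, and the change was -0.57 (1.48-fold lower, SE 0.18, adjusted p = 0.0429). With the culture day as a block the adjusted p for Maff was 0.0675. In 20 fits that each left out a day or an array, the adjusted p stayed under 0.05 in all 20 for Fosl2, in 14 for Fosl1 (up to 0.106) and in 7 for Maff (up to 0.205). Within slide 2, Fosl1 was at -0.77 (adjusted p = 0.225) and Maff at -0.31 (adjusted p = 0.392).

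The other 5 tested members did not pass the test. Mafk was at 10.48, 10.42, 10.58 and 10.33 in LPS+cordycepin, below all LPS+DMSO arrays, with a change of -0.32 (adjusted p = 0.0997). The change was -0.19 for Fos (-0.50 to 0.12, adjusted p = 0.453), -0.14 for Fosb (-0.59 to 0.31, adjusted p = 0.742), -0.28 for Jun (-0.56 to 0.01, adjusted p = 0.188) and -0.41 for Junb (-1.01 to 0.19, adjusted p = 0.396). The interval of Fos thus excludes a 2-fold reduction, and so do those of Fosb and Jun, whereas that of Junb reaches it.

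Some markers of other cell types also moved with LPS+cordycepin. The summed linear signal of 5 B-cell markers was 408 to 1179 per array in LPS+cordycepin, and 88.1 to 182 in the other 3 conditions, which came from Cd79a (mean 8.96 against 5.92 in DMSO) and Cd79b, while Ms4a1 was well above background on no array. The sum of 5 neutrophil markers was 1300 to 2339 in LPS+cordycepin and 727 to 1549 in the other conditions. Mpo was at 9.77 in LPS+cordycepin, 5.79 in LPS+DMSO, 7.04 in cordycepin and 5.02 in DMSO. In the same order Elane was at 9.11, 9.66, 9.08 and 9.30, and S100a8 at 7.75, 7.80, 8.08 and 7.61. Ly6g and S100a9 were well above background on no array. The T-cell sum was 4602 to 6783 in LPS+cordycepin and 3664 to 6983 in the others. The fibroblast sum was 68.1 to 109 in LPS+cordycepin and 55.0 to 161 in the others, and the epithelial sum 33.2 to 89.9 and 22.4 to 120. Their part in the changes of the AP-1 subunits was not tested.

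Without LPS, cordycepin changed no member by 2-fold, while 5.55% of all genes were called. At the adjusted p alone Jun was lower, 1 of 8, where 7.55% of all genes were lower. Jun was at 13.36, 12.80, 13.21 and 13.43 in DMSO and at 12.69, 12.70, 12.82 and 12.87 in cordycepin, lower on all 4 days but with overlapping groups (-0.43, SE 0.13, adjusted p = 0.0367). In the same 20 fits the adjusted p for Jun stayed under 0.05 in 10 (up to 0.249), and it did not pass within either slide (-0.39 and -0.47). Fosl1 was lower on 3 of 4 days (-0.79, SE 0.28, adjusted p = 0.0766), and the exception was replicate 3, whose DMSO array was the low one. With the culture day as a block the adjusted p for Fosl1 was 0.0219, and without DMSO replicate 3 the change was -1.13 (adjusted p = 0.00145).

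The remaining resting values were -0.29 for Mafk (adjusted p = 0.148), -0.13 for both Fosl2 and Maff, -0.12 for Fosb, -0.05 for Fos and 0.15 for Junb. All but 1 of the 8 were below 0, with a median of -0.13 against 0.04 over all genes. Fosl2, which was 1.93-fold lower among the LPS-treated arrays, thus had a resting interval of -0.35 to 0.09.

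**Figure D4:**
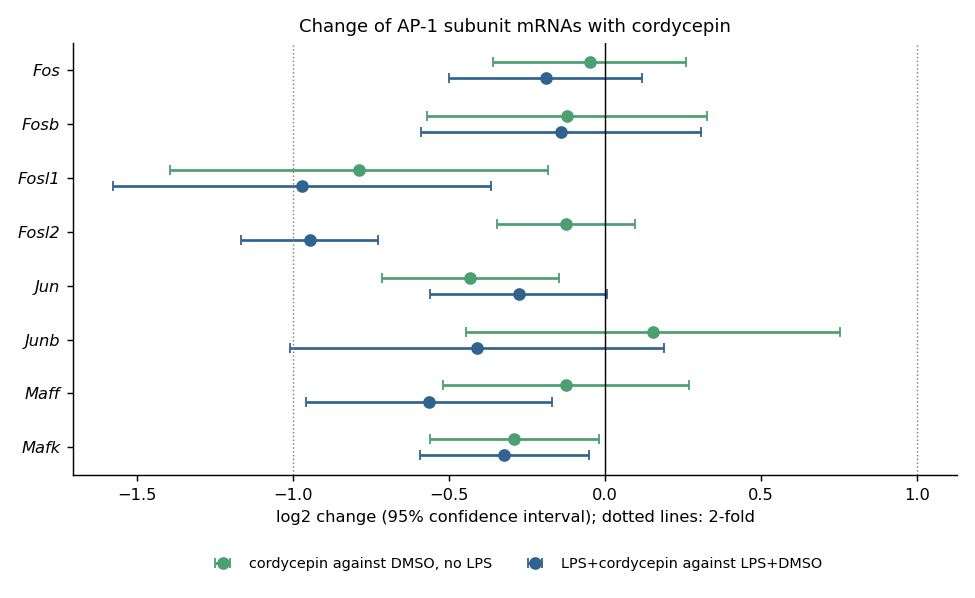
Log2 change of each tested AP-1 subunit with cordycepin, without LPS (green) and with LPS (blue), with 95% confidence intervals of the fit to 16 arrays and dotted lines at 2-fold. Fosl2 is near 0 without LPS (-0.13) and at -0.95 with LPS, and Fosl1 is at -0.79 and -0.97.

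Of 18 other leucine zipper genes related to AP-1, 14 were tested, and 2 were called higher with LPS in DMSO and none lower, against 2.09% and 2.49% of all genes, with a median of -0.05 against -0.04. At the adjusted p alone 3 were higher and 2 lower, against 816 higher and 1556 lower of all 15877 genes. The 2 called at 2-fold were Jund and Atf3. Jund, the third Jun gene, rose by 1.47 (SE 0.28, adjusted p = 0.00159). Atf3, a stress-induced factor that can pair with Jun, rose by 3.13 (SE 0.15, adjusted p = 1.06e-09). Atf3 was called lower with cordycepin in LPS-stimulated cells (-2.01, SE 0.15, adjusted p = 1.31e-07), and it was the only 1 of the 14 called there, where 7.46% of all genes were. Its LPS response was smaller in cordycepin (-1.02, adjusted p = 0.0479). Atf3 at rest was also lower with cordycepin, at -0.99 on the log2 scale (adjusted p = 0.000211), while Fosl2 was at -0.13.

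Of 44 genes of the MAP kinase and serum response factor pathway, which lies upstream of the immediate early genes, 42 were tested. With LPS in DMSO, 1 was called higher and 0 lower, a share close to the 2.09% of all genes called higher, with a median of 0.01. This was Srf, the serum response factor, which rose by 1.05 (SE 0.10, adjusted p = 3.83e-06). In LPS-stimulated cells, cordycepin raised Mapk12, a p38 kinase (1.62, SE 0.27, adjusted p = 0.000343), whose probe was dim on 2 of the 4 LPS+DMSO arrays. There it also lowered Creb1, a factor that binds the cAMP response element (-1.18, SE 0.22, adjusted p = 0.00102). These were 2 of the 42, against 7.46% of all genes, and the median was -0.05. With cordycepin at rest, Mapk12 was likewise higher (1.58, adjusted p = 0.000566) and Creb1 was at -0.37 (adjusted p = 0.313). Mapkapk2, the kinase downstream of p38, had a smaller LPS response in cordycepin (-0.64, adjusted p = 0.0366).

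Of 28 genes known as targets of AP-1, 19 were tested and 11 were called higher with LPS in DMSO, where 2.09% of all genes were. Of the 19, 4 passed the filter on dim probes only through LPS arrays and so had to be higher there, and of the other 15 there were 7 called, with a median of 1.00. The calls included the cytokine genes Tnf (6.71) and Ccl2 (3.79), the cyclooxygenase gene Ptgs2 (3.17), and the protease system genes Plaur (2.03) and Timp1 (1.11). Il1b was not well above background on any DMSO array, and was at least 65.2-fold higher in LPS+DMSO. The cytokine genes Ifnb1 and Il6 were called too, but were well above background on 1 DMSO array each, so that no fold is given. Timp1 was well above background on 2. Also called were the growth factor gene Hbegf (1.49) and the adhesion molecule gene Icam1 (2.67). Tnf, Il6 and Icam1 are also textbook targets of NF-kB.

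In LPS-stimulated cells, cordycepin lowered 4 of these 19 at 2-fold and raised 1, where 1.52% and 5.93% of all genes were called lower and higher. At the adjusted p alone 9 of the 19 were lower and 1 higher. Of all 15877 genes, 1344 (8.47%) were lower and 1707 higher at that threshold. Among the 8 AP-1 subunits 3 were lower, and the difference between the lists was not tested. Tnf changed by -1.07 (SE 0.12, adjusted p = 5.29e-06), Il1b by -1.73 (SE 0.37, adjusted p = 0.00271), Ccl2 by -1.33 (SE 0.18, adjusted p = 4.28e-05) and Ptgs2 by -1.48 (SE 0.17, adjusted p = 8.22e-06). Timp1, an inhibitor of matrix proteases, was higher by 1.53 (SE 0.20, adjusted p = 2.83e-05) and was also higher with cordycepin at rest (2.17). The LPS response itself was smaller in cordycepin for 3 of the 19, where 0.271% of all genes were called so, namely Tnf (-1.55, adjusted p = 0.00037), Icam1 (-0.93, adjusted p = 0.0438) and the hyaluronan receptor gene Cd44 (-0.59, adjusted p = 0.0447).

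**Figure D5:**
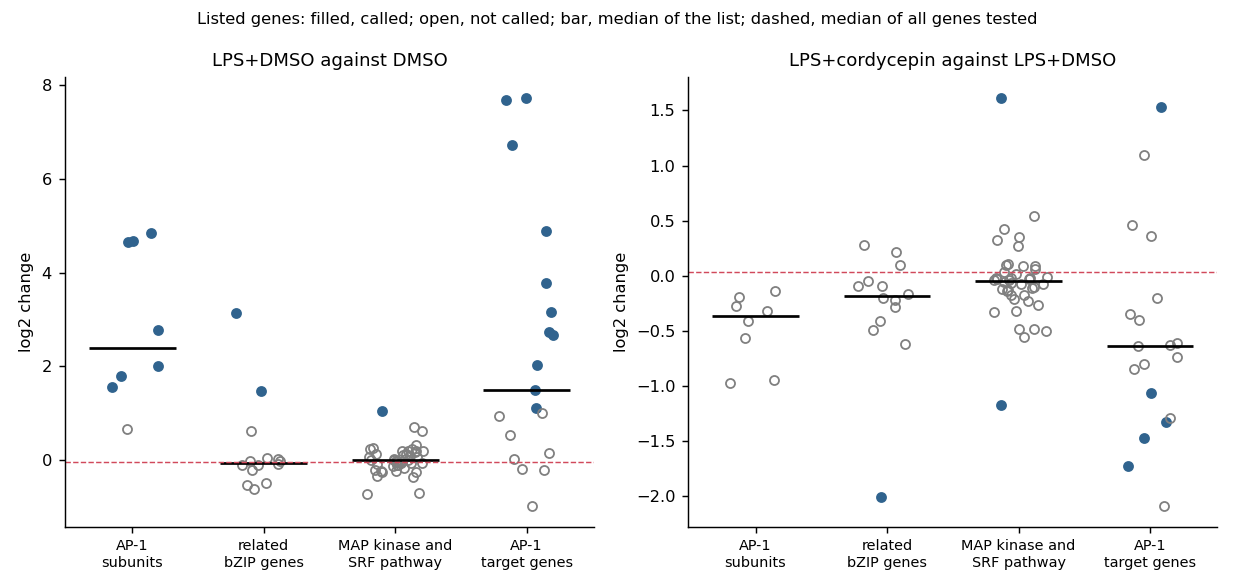
Log2 change of the tested genes of 4 lists (8 AP-1 subunits, 14 related leucine zipper genes, 42 MAP kinase and serum response factor pathway genes, 19 AP-1 targets) for LPS+DMSO against DMSO (left) and LPS+cordycepin against LPS+DMSO (right). Filled points were called, black bars are the list medians and the dashed line is the median of all genes tested. On the left the medians of the subunits and the targets, 2.39 and 1.49 over all that passed the filter, lie above those of the other lists. Single genes of the lists overlap, and no subunit is filled on the right.

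Across the 16 arrays, 4 members were well above background throughout. The genes whose signal followed theirs most closely are given as a description, since the difference between arrays with and without LPS enters every r. Fosl2 was followed by Traf1, an adaptor of TNF receptors (Pearson r = 0.992 over 16 arrays), Acod1, the itaconate-forming enzyme (0.990), and Ccl2, a monocyte chemokine (0.984). Jun was followed by Arc (0.988), Egr2 (0.981) and Csrnp1 (0.978). The genes nearest to Maff were Ccrl2 (0.996), Tnfaip3, an inhibitor of NF-kB signalling (0.994), and the chemokine Cxcl10 (0.993). Those nearest to Mafk were Osgin2 (0.963), Vegfa (0.956) and Adm (0.947). Between the 28 pairs of tested members r was 0.76 to 0.99 over the arrays, and after the condition means were subtracted it was -0.60 to 0.69 with a median of 0.16.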

How the data were processed

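RNA of 16 cultures was labelled with Cy3 and hybridised to Agilent 1-colour mouse arrays. The deposited scanner files hold the intensity of each of 59305 spots, which the authors obtained with Agilent Feature Extraction 10.10.1.1, per the submitters' processing notes, after subtraction of background, not normalized between arrays. The deposited value table, used only as an alternative, holds log2 values that the authors had normalized between arrays by a method not given in the sources used here. On each array it correlated with the scanner values by 0.995 to 0.998, in the same direction.

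The processed intensity was log2-transformed, flagged spots were left out and spots of a probe averaged. Scaling set the 75th percentile of every array equal, taken over 18063 probes that exceeded background clearly on each array. A probe was kept if it did so on all 4 arrays of a condition (21597 probes), with the brightest probe per gene. The 4 condition means were fitted to the 16 arrays with limma 3.58.1 in R 4.3.3, and the differences between them were tested in the same fit. Tested genes were named through RefSeq accessions where possible, and a fold is taken from the fitted log2 change. "At least" folds used, per array, the dimmest probe well above background or the dim probe itself, whichever was higher. The number of arrays limits the precision. Python 3.11.15 with pandas 2.3.3 and matplotlib 3.10.9 was used for the files and plots.

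Samples of one number share a culture day and plate, per the labels. The mean correlation of residuals was 0.20 for arrays with the same number, and over 0.1 for 20 of 24 pairs, against 0.18 for other numbers on the same slide and -0.19 between slides. The members and gene lists were chosen with earlier results of these data known. All members are named, and of the other lists those called with LPS in DMSO, with cordycepin in LPS-stimulated cells or in the interaction, except for items that are not reported here. Likeness was taken for members well above background on all arrays. Alternatives were other background corrections, scalings, filters, probe rules, blocks, thresholds and sets of samples, and each replicate or array left out.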

Additional observations from a re-analysis of the deposited data

Results flagged for a closer look

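Junb in DMSO replicate 2 was at 5.81, while the other 3 DMSO arrays lay between 7.08 and 7.22, a gap of more than Dixon's limit for 4 arrays. Mafk in cordycepin replicate 2 was at 9.56, and the other 3 cordycepin arrays lay between 9.90 and 9.94. These were 2 of 32 sets of 4 arrays, where chance gives about 1.6.

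The LPS response of Fosl2 differed with cordycepin by -0.82 on the log2 scale (limma interaction, adjusted p = 0.0147), with a smaller response on all 4 days.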

How the results depend on the processing

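The 7 subunits called higher with LPS in DMSO, and the 7 in cordycepin, became 3 of 4 tested when only probes well above background on all arrays were used, because fewer genes were tested. Leaving out a day or an array gave 7 in DMSO and 6 to 7 in cordycepin. The count lower with cordycepin at rest was 1 (Fosl1) with quantile normalization and 1 (Jun) without a minimum fold. It was 0 to 1 when a replicate or an array was left out, the 1 arising without replicate 3 or its DMSO array. With LPS, the count lower with cordycepin was 1 with quantile normalization, 2 with the percentile over all probes, 1 within slide 1, 3 without a minimum fold and 0 to 1 when a replicate was left out. The interaction count of 1 became 0 with spiked-in scaling, without the filter on dim probes (adjusted p = 0.136), within slide 1 and within slide 2. It also became 0 with a 2-fold minimum at an adjusted p under 0.05 or 0.01, and when any 1 of the 4 replicates was left out. Leaving out a single array kept it at 1. The cause was not tested. The replicate block and the slide block changed no count of members called. At the adjusted p alone, the replicate block took Maff with cordycepin and LPS above 0.05 (0.0675). The replicate block and the slide block took Fosl1 with cordycepin at rest under 0.05 (0.0219 and 0.0326). Over the whole table they raised the interaction calls from 88 to 208 and 244. The block combined with only the groups compared was chosen after seeing the data.

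Spiked-in scaling moved the median of all genes to -0.36 for LPS in cordycepin and -0.21 for the interaction. Changes near 0 turned in sign. Junb with cordycepin at rest was -0.0495 with normexp, -0.0187 with quantile normalization and -0.0191 with the authors' values. Fos at rest was 0.0108 with spiked-in scaling and 0.14 within slide 2, where Fosb was 0.17, Maff 0.0864 and Mafk 0.0123, and Fosb with LPS was 0.0105. In the interaction, Fosb was 0.0718 with normexp, 0.11 with quantile normalization and 0.12 within slide 1, Fos 0.10 with quantile normalization, Jun -0.0593 with spiked-in scaling and Mafk 0.20 within slide 1. With a replicate left out, the ranges at rest were -0.17 to 0.0685 for Fos, -0.26 to 0.0810 for Fosb and -0.18 to 0.34 for Junb. With LPS the range for Fosb over the 20 fits was -0.27 to 0.00833. In the interaction the ranges over the 20 fits were -0.20 to 0.13 for Fosb, -0.46 to 0.16 for Fosl1 and -0.20 to 0.12 for Mafk. Low signal limits Fos, Fosb, Fosl1 and Junb at rest, and Batf throughout.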
